A study of Mus musculus with 7 samples.

Results

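The SLAM family receptors and the adaptor that serves them were followed in hematopoietic stem cells (HSCs) of Ahr knockout and wild-type mice. Members were the 10 genes Slamf1, Cd48, Cd244 (listed as Cd244a), Ly9, Slamf6, Slamf7, Slamf8, Slamf9, Cd84 and Sh2d1a, taken by name. Every row of the deposited table annotated with 1 of these genes alone was used, which gave 11 probe sets, since Slamf6 had a pair of them. They stood among 22180 genes with a probe set of their own. The study measured total RNA from stem cells on 7 single-colour Affymetrix arrays, 3 from Ahr knockout mice (Ahr-KO) and 4 from wild-type mice (WT). Both groups were on a C57BL/6J background and were killed at 8 weeks of age. Marrow was depleted of lineage-positive cells, and the stem cells were taken from the remainder by SLAM surface markers. The labels give neither the design of the Ahr allele nor whether an array stands for 1 mouse or a pool, so p-values cover the scatter of these arrays alone, and that scatter may be technical.

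SLAM receptors are small immunoglobulin-type proteins of blood cells. Most bind a copy of themselves on a neighbouring cell, whereas CD244 binds CD48. Several carry tyrosine switch motifs in the cytoplasmic tail that bind the SH2 adaptor SAP, the product of Sh2d1a, which brings in the kinase Fyn. In mouse marrow the surface combination CD150-positive, CD48-negative and CD244-negative marks HSCs, and CD150 is the product of Slamf1. A sort by this code selects for the Slamf1 protein and against CD48 and CD244; the labels name SLAM markers without listing each one used.

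The 9 receptor genes share a stretch of chromosome 1 in the RefSeq gene table, in the order Cd244a, Ly9, Slamf7, Cd48, Slamf1, Cd84 and Slamf6, with Slamf9 and Slamf8 farther along. Sh2d1a lies on chromosome X. The RefSeq promoter table (GRCm38.p6) held 8 of the 10 genes. The windows of Slamf1 and Cd48 are shown because their products belong to the HSC surface code given above. These genes also had the highest positive differences among the members. Each is the 250 bases before the annotated start on the plus strand, at chr1:171766882-171767131 for Slamf1 and chr1:171681742-171681991 for Cd48, with capitals marking AGGAAG, a core bound by ETS factors such as PU.1.
Slamf1: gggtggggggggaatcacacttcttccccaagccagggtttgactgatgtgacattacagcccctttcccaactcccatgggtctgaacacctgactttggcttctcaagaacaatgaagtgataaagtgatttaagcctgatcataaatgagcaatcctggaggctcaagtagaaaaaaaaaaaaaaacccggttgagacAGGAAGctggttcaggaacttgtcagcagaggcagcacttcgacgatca
Cd48: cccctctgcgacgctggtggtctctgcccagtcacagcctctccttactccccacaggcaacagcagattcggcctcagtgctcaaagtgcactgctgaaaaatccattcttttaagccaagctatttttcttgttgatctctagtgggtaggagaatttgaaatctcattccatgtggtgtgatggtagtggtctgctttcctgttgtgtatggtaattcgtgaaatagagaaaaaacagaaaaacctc

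Several short motifs were searched on both strands of the 8 windows. GCGTG, the core of the element that AhR binds together with ARNT, was in 0 of the 8 windows, against 28.2% of 32851 RefSeq promoter windows of the same length. AGATAA, read by GATA factors, was also in 0 of the 8, against 9.99% of all windows. AGGAAG was in 3 of the 8, those of Slamf1, Slamf7 and Slamf9, against 29.5%. None of these letter strings overlaps another. The shares are over all windows, which were not matched to the 8 in base composition. A match is a string of letters and no measured site, and no match says only that the letters are not in these 250 bases.

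The deposited values are linear intensities without a detection call. Olfactory receptor genes, not expected in marrow, gave a background mark: on each array, the intensity that 95% of their 1108 probe sets did not exceed. The mark lay between 33.8 and 42.8. Between 30.7% and 44.9% of the 25335 annotated probe sets exceeded it on an array. WT replicate 2 had the lowest share, and there the HSC transcription factor gene Mecom was listed at 0 and Hoxb5 at 0.31, against 107 to 675 and 153 to 276 on the other WT arrays. The erythroid factor gene Gata1 stood at 1299 on that array and at 64.8 or lower on the other 6. Ahr itself (probe set 17280729) stood at 34.1, 137 and 26.4 on Ahr-KO arrays, against 31.3, 57.9, 14.9 and 20.5 on WT arrays. The labels give neither the deleted part of Ahr nor the part covered by the probe set, so these values do not check the genotype. Of 12 measured HSC markers, 4 (Kit, Hlf, Cd27 and Mllt3) exceeded the mark on all 7 arrays.

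Of the 11 member probe sets, 6 exceeded the mark on no array, 5 on some arrays and 0 on all 7. Those above it on at least 1 array belonged to Slamf1, Cd48, Cd84, Slamf7 and Sh2d1a. Cd84 exceeded it on 6 arrays, Cd48 and Slamf7 on 5 each, Slamf1 on 4 and Sh2d1a on 1. By array, 4, 4 and 3 member probe sets exceeded the mark in Ahr-KO, and 1, 2, 3 and 4 in WT. Among all annotated probe sets, 3643 exceeded it on all 7 arrays and 8590 on none.

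**Figure D1:**
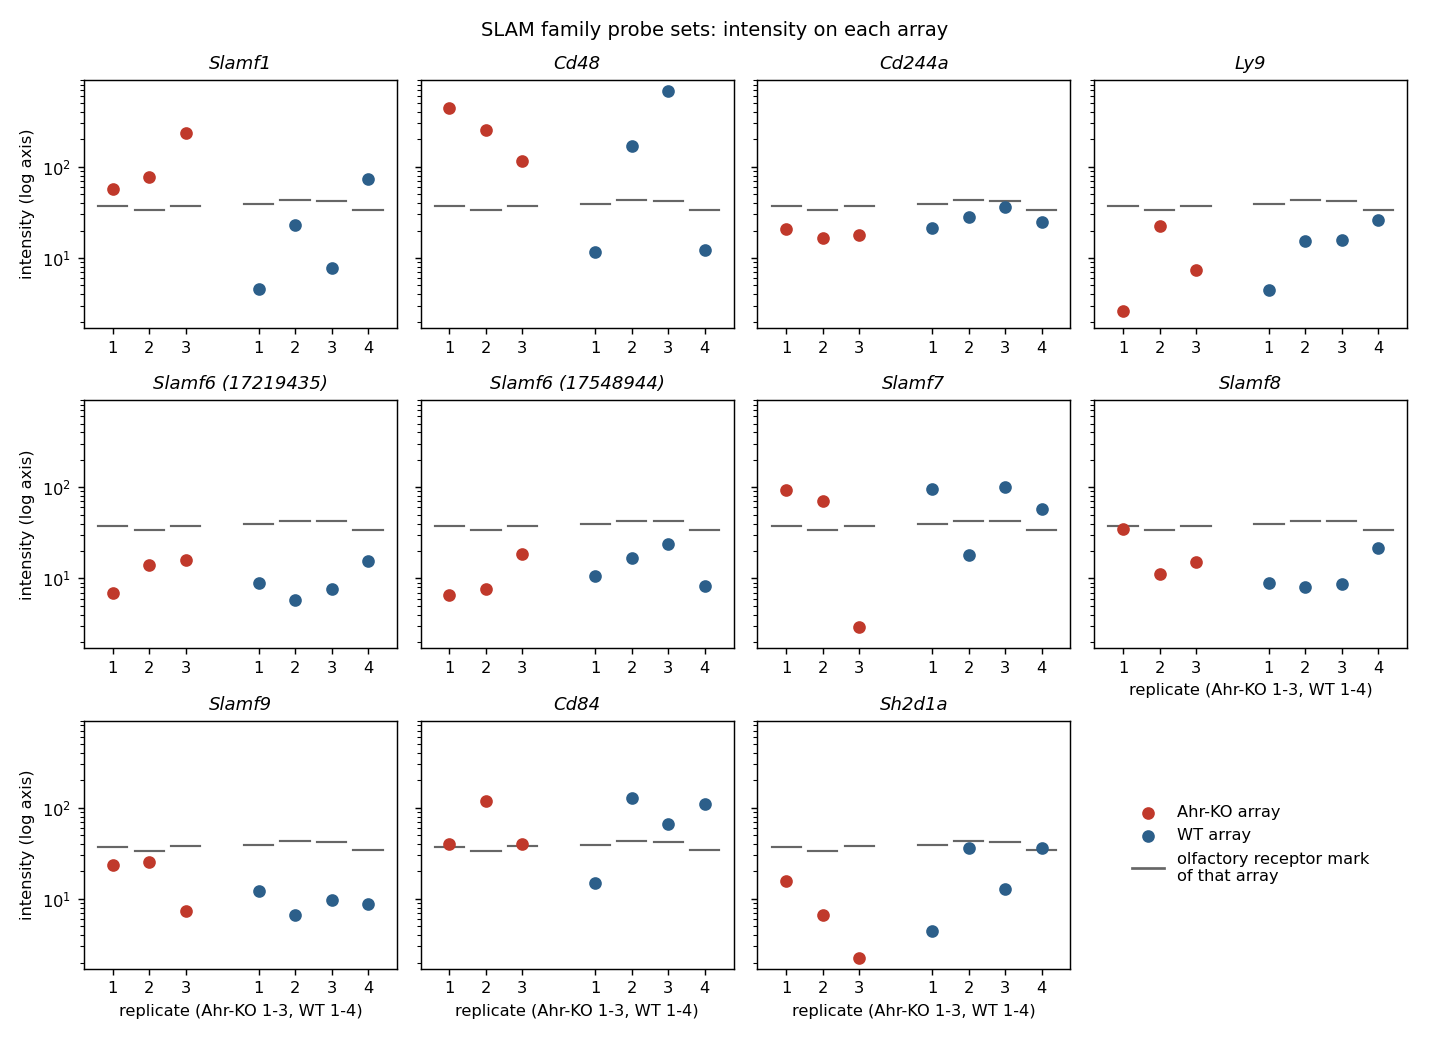
Intensity (log axis) of each SLAM family probe set on each array, with Ahr-KO replicates 1 to 3 on the left of a panel and WT replicates 1 to 4 on the right; grey dashes give the olfactory receptor mark of each array. Slamf1, Cd48 and Cd84 lie above the mark on all 3 Ahr-KO arrays, while Cd244a, Ly9, Slamf8, Slamf9 and both Slamf6 probe sets lie below it on all 7 arrays.

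No call was made among the 11 member probe sets at the 0.05 threshold for adjusted p (limma, Benjamini-Hochberg over 25335 probe sets). The background was the same, with 0 of 25335 called, or 0%. Values were higher in Ahr-KO for 5 member probe sets and lower for 6, where 48.3% of all probe sets were higher and 51.7% lower, with a median log2 difference of -0.10, beside a median of -0.03 over all probe sets tested. At an unadjusted p under 0.05, 1 member probe set was called, that of Slamf1, which was higher in Ahr-KO. Over all probe sets 4.21% were called at that level, made up of 1.99% higher and 2.22% lower in Ahr-KO. Differences are Ahr-KO minus WT in log2(intensity + 1). For dim probe sets their size depends on the added constant and can be large from scatter at low intensity. The dim gene Cfap45, for example, differed by -1.97, but by -0.66 with 16 added in place of 1.

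**Figure D2:**
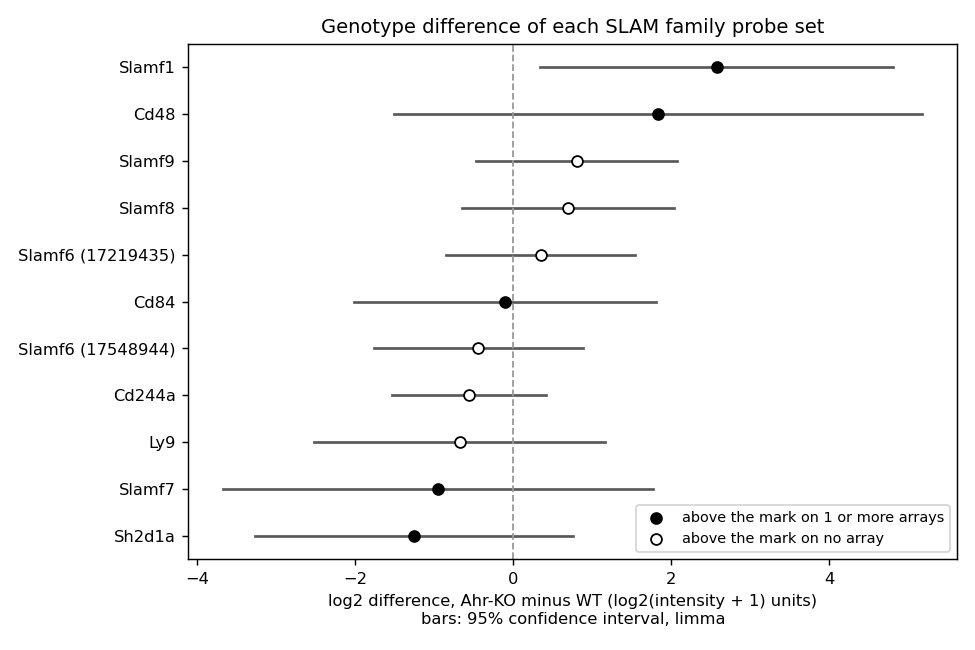
Log2 difference, Ahr-KO minus WT, of each SLAM family probe set, with the 95% confidence interval from limma as bars; filled points exceeded the olfactory receptor mark on 1 or more arrays and open points on none. The Slamf1 interval, unadjusted for the number of probe sets, runs from 0.34 to 4.81 and the other 10 intervals include 0.

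The receptor genes of the sorting code come first. Slamf1 (probe set 17219407), which encodes CD150, stood at 57.4, 78.0 and 236 on the Ahr-KO arrays, against 4.56, 23.3, 7.81 and 73.3 on the WT arrays. All 3 Ahr-KO values exceeded the mark of their array, and of the WT values that of replicate 4 alone did. The groups overlap, because WT replicate 4 lies above Ahr-KO replicate 1. Log2 intensity averaged 6.69 ± 1.06 (SD, n = 3) among Ahr-KO arrays and 4.11 ± 1.66 (SD, n = 4) among WT arrays.

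The Slamf1 log2 difference was 2.58 ± 0.97 (SE), with a 95% interval of 0.34 to 4.81 and a limma adjusted p of 0.963. Its unadjusted limma p was 0.0288. An exact permutation test of the mean log2 values over the 35 splits of the arrays was two-sided at p = 0.0857; the design allows none below 0.0286. The unadjusted limma p was 0.107 when Ahr-KO replicate 3 was left out, 0.0681 when WT replicate 1 was, and 0.0719 when WT replicate 3 was. With a pseudocount of 16 in place of 1 the difference was 1.73, and without WT replicate 2 it was 2.74. In bulk RNA of sorted cells, fewer cells that express a gene and less of its RNA per cell cannot be told apart.

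The HSC marker list is given beside Slamf1. Of its 12 measured genes, 4 were higher and 8 lower in Ahr-KO, with a median log2 difference of -0.22 and 0 at an adjusted or unadjusted limma p under 0.05. Summed intensity of the list ran from 2412 to 3220 on Ahr-KO arrays and from 2913 to 4078 on WT arrays. The 4 genes of the list with the smallest unadjusted p-values differed in both directions. Thy1, which encodes the surface protein CD90, stood at 14.8, 115 and 17.8 on Ahr-KO arrays, against 8.70, 24.8, 4.16 and 6.95 on WT arrays, a log2 difference of 1.69 ± 0.86 (SE), and exceeded the mark on Ahr-KO replicate 2 alone. Ctnnal1, which encodes alpha-catulin, stood at 18.2, 18.3 and 18.7 on Ahr-KO arrays, against 32.7, 20.9, 335 and 43.1 on WT arrays, a log2 difference of -1.57 ± 0.91 (SE). It exceeded the mark on WT replicates 3 and 4 alone. Tek, the angiopoietin receptor gene, differed by -1.43 ± 1.11 (SE) and Hlf, an HSC transcription factor gene, by -0.66 ± 0.47 (SE). The other genes with a positive difference were Mecom at 1.30 ± 2.09 (SE), Esam, an adhesion molecule gene, at 0.72 ± 1.13 (SE) and Hoxb5 at 0.48 ± 1.82 (SE). On WT replicate 2, Mecom was listed at 0 and Hoxb5 at 0.31, which lowers their WT log2 means. Mean intensity was lower in Ahr-KO for both, at 215 against 268 in WT for Mecom and 90.6 against 175 for Hoxb5. Kit, the stem cell factor receptor, stood at 736 ± 90.9 (SD, n = 3) among Ahr-KO arrays and 995 ± 264 (SD, n = 4) among WT arrays. Hlf stood at 438 ± 172 (SD, n = 3) among Ahr-KO arrays and 672 ± 159 (SD, n = 4) among WT arrays. The part of HSC content in the Slamf1 values was not tested.

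Cd48 (probe set 17219397), which encodes the GPI-anchored ligand of CD244 and of CD2, stood at 443, 253 and 117 on Ahr-KO arrays, against 11.5, 171, 679 and 12.2 on WT arrays. It exceeded the mark on every Ahr-KO array and on WT replicates 2 and 3. WT replicates 1 and 4 were below the mark, so WT alone holds both the lowest and the highest value of the gene. Log2 intensity averaged 7.89 ± 0.96 (SD, n = 3) among Ahr-KO arrays and 6.05 ± 2.85 (SD, n = 4) among WT arrays.

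The Cd48 log2 difference was 1.84 ± 1.45 (SE), with a 95% interval of -1.51 to 5.18 and a limma adjusted p of 0.963. The exact permutation test gave a two-sided p of 0.371 over the 35 splits. Leaving out single arrays moved the difference between 1.03, without WT replicate 1, and 2.95, without WT replicate 3. In the last of these fits the unadjusted limma p was 0.0376 (adjusted p = 0.978), and it was above 0.05 with all 7 arrays and in the other 14 alternatives. The difference was smaller than the SD among WT arrays, and Cd48 exceeded the mark on 5 of 7 arrays of cells sorted with SLAM markers.

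Genes listed here as markers of CD48-positive progenitors were uneven in the same arrays. Not all of them are restricted to cells outside the CD48-negative gate. Of 10 such genes, 3 (Cd34, Cd9 and Mpo) exceeded the mark on all 7 arrays. Summed intensity of the list was 3856, 7585 and 4507 on Ahr-KO arrays, against 1811, 9007, 2683 and 3402 on WT arrays. Of these sums, Cd9 supplied 2931 on Ahr-KO replicate 2 and 3645 on WT replicate 2. The lowest sum was on WT replicate 1, which also had the lowest Cd48, but the highest Cd48 was on WT replicate 3 and the highest sum on WT replicate 2. The genes of this list with the smallest unadjusted p-values were Dntt, Il7r, Klf1 and Mpo, all with positive differences. Dntt, the lymphoid DNA polymerase gene, differed by 1.67 ± 1.23 (SE) and exceeded the mark on Ahr-KO replicate 3 alone, at 470. Il7r, the interleukin-7 receptor gene, differed by 0.84 ± 0.65 (SE) and exceeded the mark on no array. Klf1, an erythroid factor gene, differed by 1.06 ± 0.89 (SE) and exceeded the mark on Ahr-KO replicate 2 alone, at 159. Mpo, the granule peroxidase gene, stood at 1127, 3424 and 2284 on Ahr-KO arrays, against 186, 3284, 1217 and 1509 on WT arrays. In this list 7 genes were higher and 3 lower in Ahr-KO, with a median log2 difference of 0.81 (0.26 without WT replicate 1) and 0 at an adjusted or unadjusted limma p under 0.05. Their part in the Cd48 values was not tested.

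Slamf1 and Cd48 did not follow each other across arrays. Within Ahr-KO, the array with the highest Slamf1 (236) had the lowest Cd48 (117), and the array with the lowest Slamf1 (57.4) had the highest Cd48 (443). Within WT, replicate 4 had Slamf1 at 73.3 with Cd48 at 12.2, and replicate 3 had Slamf1 at 7.81 with Cd48 at 679. WT replicate 1 was low for both, at 4.56 and 11.5. WT replicate 4 was the only array with Slamf1 above and Cd48 below the mark, and all 3 Ahr-KO arrays had both above it.

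**Figure D3:**
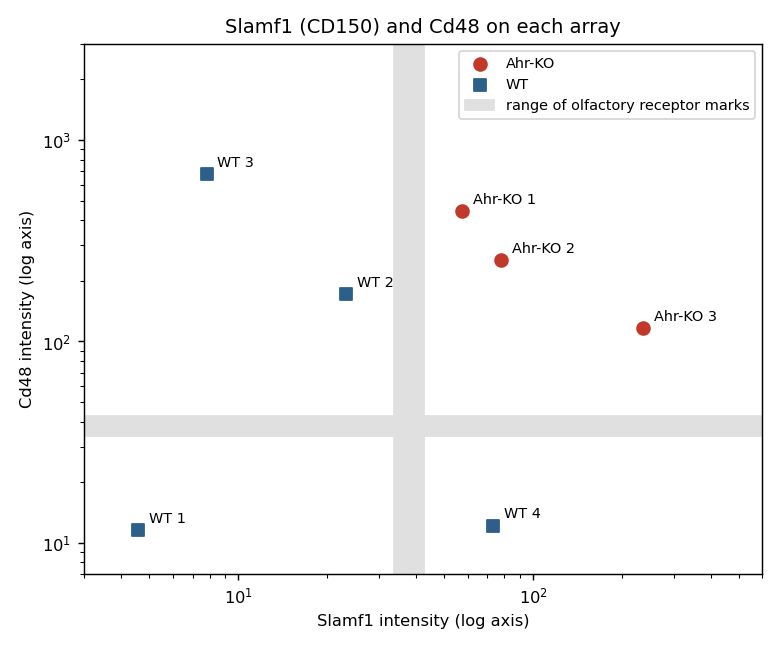
Slamf1 intensity (x, log axis) against Cd48 intensity (y, log axis) on each array, Ahr-KO as red circles and WT as blue squares, with the range of the olfactory receptor marks in grey. WT replicate 4 alone falls in the lower right field, and the 3 Ahr-KO arrays fall in the upper right.

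Cd244a (probe set 17219382), the gene of the CD48 receptor 2B4 of NK cells, stood at 20.7, 16.5 and 17.8 on Ahr-KO arrays, against 21.5, 28.5, 36.4 and 24.8 on WT arrays. All 7 values were below the mark. The groups did not overlap, with Ahr-KO lower, and this was the 1 member probe set whose groups did not overlap; over all probe sets 5.74% did not overlap, and 3.13% were lower in Ahr-KO without overlap. It differed in log2 by -0.55 ± 0.42 (SE; limma adjusted p = 0.963; 95% interval -1.53 to 0.42), and the exact permutation p was 0.0571 (two-sided). Because both groups lie below the mark, this gene was not called above background and no fold is given.

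Among the other receptors with signal, Cd84 (probe set 17219418), a self-binding receptor also found on platelets and mast cells, had values of 40.1, 118 and 39.7 on Ahr-KO arrays, against 15.03, 126, 66.4 and 109 on WT arrays. It was above the mark on every array except WT replicate 1, and the groups overlap over most of their range. The log2 difference was -0.10 ± 0.83 (SE), with a limma adjusted p of 0.996 and a 95% interval of -2.01 to 1.82. Its sign turned when any of 4 arrays was left out, with values from 0.16 to 0.25. The interval is wide enough to hold a change of either sign, so these arrays do not show Cd84 to be alike in both genotypes.

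Slamf7 (probe set 17229782), a self-binding receptor of NK and plasma cells that signals through the adaptor EAT-2, had values of 92.8, 71.1 and 2.95 on Ahr-KO arrays, against 96.8, 18.1, 99.7 and 57.4 on WT arrays. It exceeded the mark on 2 Ahr-KO and 3 WT arrays. It differed in log2 by -0.94 ± 1.18 (SE; limma adjusted p = 0.965; 95% interval -3.67 to 1.78). Ahr-KO replicate 3 decides the sign: without it the difference was 0.52. That array is also the one with the highest Slamf1.

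Markers of the cells in which Slamf7 is best known were mostly dim. Of 11 measured T and NK cell markers, 5 exceeded the mark on no array and 2, Cd3e and Nkg7, on all 7. Nkg7, a cytotoxic granule gene, stood at 200, 770 and 538 on Ahr-KO arrays, against 79.2, 394, 160 and 175 on WT arrays. The other genes among the 4 with the smallest unadjusted p-values were Klrd1, Gzmb and Cd3e. Klrd1, the CD94 gene of NK cells, differed by 2.21 ± 1.18 (SE), above the mark on Ahr-KO replicate 2 alone, and Gzmb, the granzyme B gene, by 0.84 ± 0.55 (SE), above it on no array. Cd3e, a T cell receptor complex gene, differed by 0.37 ± 0.42 (SE). Summed intensity of this list was 455, 1194 and 800 on Ahr-KO arrays, against 285, 711, 395 and 348 on WT arrays. Of its genes, 6 were higher and 5 lower in Ahr-KO, with a median log2 difference of 0.28 and 0 at an adjusted or unadjusted limma p under 0.05. Of 9 measured B cell and plasma cell markers, 4 exceeded the mark on no array and 0 on all 7. Jchain, the joining chain of secreted antibodies, stood at 5.13, 343 and 0.89 on Ahr-KO arrays, against 0.80, 711, 18.9 and 25.9 on WT arrays. The genes of this list with the smallest unadjusted p-values were Sdc1, the plasma cell marker gene, at 1.44 ± 0.50 (SE), and the B cell genes Pax5 at -0.87 ± 0.55 (SE), Cd22 at -0.84 ± 0.55 (SE) and Cd79b at -0.83 ± 0.89 (SE). Summed intensity of the B and plasma list was 203, 597 and 158 on Ahr-KO arrays, against 169, 1051, 206 and 327 on WT arrays. Slamf7 was lowest on Ahr-KO replicate 3 and WT replicate 2, the arrays with the lowest and the highest of these sums. The part of such cells in the Slamf7 values was not tested.

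Ly9 (probe set 17229767), which encodes the self-binding lymphocyte receptor CD229, stood at 2.61, 22.5 and 7.31 on Ahr-KO arrays, against 4.46, 15.5, 15.7 and 26.0 on WT arrays. All of these values lie below the mark. The difference in log2 units was -0.67 ± 0.80 (SE; limma adjusted p = 0.964), and it was -0.02 without Ahr-KO replicate 1.

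Slamf6, the gene of the lymphocyte receptor Ly108, had probe sets that disagreed in sign. The first (17219435) gave 6.87, 13.9 and 16.04 on Ahr-KO arrays, against 8.90, 5.82, 7.65 and 15.4 on WT arrays, differing in log2 by 0.35 ± 0.52 (SE; limma adjusted p = 0.968). The second (17548944) gave 6.58, 7.67 and 18.6 on Ahr-KO arrays, against 10.6, 16.9, 24.0 and 8.15 on WT arrays, differing in log2 by -0.44 ± 0.57 (SE; limma adjusted p = 0.965). Both lay below the mark on all 7 arrays, so neither sign describes a transcript called above background.

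Slamf8 and Slamf9 encode receptors that are best known from macrophages and dendritic cells and whose tails lack the switch motif. Slamf8 (probe set 17229931) stood at 34.9, 11.1 and 15.2 on Ahr-KO arrays, against 8.91, 8.09, 8.70 and 21.3 on WT arrays. Slamf9 (probe set 17219546) stood at 23.5, 25.4 and 7.43 on Ahr-KO arrays, against 12.1, 6.59, 9.60 and 8.81 on WT arrays. Both stayed below the mark on all 7 arrays, and for both the groups overlap. The log2 differences were 0.70 ± 0.58 (SE) for Slamf8 and 0.81 ± 0.55 (SE) for Slamf9, each with a limma adjusted p of 0.963. Without Ahr-KO replicate 3 the unadjusted limma p of Slamf9 was 0.033.

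Of 12 measured macrophage and dendritic cell markers, 3 exceeded the mark on no array and 3 on all 7, and Vcam1 was listed at 0 on WT replicate 2. Of the list, 3 genes were higher and 9 lower in Ahr-KO, with a median log2 difference of -0.66. None passed an adjusted p under 0.05, and 1, the class II gene H2-Eb1, had an unadjusted limma p under 0.05 with lower values in Ahr-KO. Summed intensity was 368, 1177 and 474 on Ahr-KO arrays, against 831, 853, 817 and 1135 on WT arrays. The other genes of this list among the 4 with the smallest unadjusted p-values were Adgre1, the F4/80 gene, at -1.26 ± 0.57 (SE), Mertk, a receptor gene for uptake of dead cells, at -0.71 ± 0.44 (SE), and Itgax, the CD11c gene, at -1.02 ± 0.74 (SE). Adgre1 and Itgax exceeded the mark on no array, and Mertk on WT replicate 3 alone. Csf1r, the macrophage growth factor receptor gene, exceeded the mark on Ahr-KO replicate 2 alone, at 296. The part of such cells in the Slamf8 and Slamf9 values was not tested.

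Sh2d1a (probe set 17534470), which encodes SAP and whose human counterpart is mutated in X-linked lymphoproliferative disease, stood at 15.9, 6.61 and 2.27 on Ahr-KO arrays, against 4.38, 36.1, 12.8 and 36.3 on WT arrays. Only WT replicate 4 exceeded the mark of its array. The groups overlap, since WT replicate 1 is lower than 2 of the Ahr-KO values. It differed in log2 by -1.26 ± 0.87 (SE; limma adjusted p = 0.963; 95% interval -3.27 to 0.76), and -0.59 with a pseudocount of 16. The related adaptor genes Sh2d1b1 and Sh2d1b2, which encode mouse EAT-2A and EAT-2B, exceeded the mark on no array. Sh2d1b1 ran from 5.31 to 15.8 on Ahr-KO arrays and from 1.92 to 19.2 on WT arrays, and Sh2d1b2 from 10.9 to 18.1 on Ahr-KO arrays and from 11.6 to 26.1 on WT arrays.

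Downstream of the receptors lie kinases, phosphatases and adaptors that other pathways share. Of 18 measured partner genes, 3 exceeded the mark on all 7 arrays and 3 on none. Of the 18, 6 were higher and 12 lower in Ahr-KO, with a median log2 difference of -0.11. At an adjusted p under 0.05 the limma fit called 0 of them, and at an unadjusted p under 0.05 also 0. The genes above the mark on all 7 arrays were Csk, Ptpn6 and Plcg1. Csk, the kinase that restrains Src-family kinases, stood at 289, 344 and 201 on Ahr-KO arrays, against 247, 371, 102 and 207 on WT arrays. Ptpn6, the gene of the tyrosine phosphatase SHP-1, stood at 423, 195 and 123 on Ahr-KO arrays, against 406, 142, 231 and 145 on WT arrays. Plcg1, a phospholipase C gene, stood at 55.6, 157 and 211 on Ahr-KO arrays, against 194, 105, 155 and 98.1 on WT arrays. Each of these 3 genes overlapped between genotypes.

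Fyn, the Src-family kinase that SAP recruits, was uneven: it stood at 7.25, 52.6 and 12.0 on Ahr-KO arrays, against 58.5, 0.01, 44.9 and 42.4 on WT arrays, above the mark on 4 arrays. The partner genes with the smallest unadjusted p-values were all lower in Ahr-KO. Dok2, an adaptor that dampens Ras signalling, differed by -1.12 ± 0.61 (SE) and Pik3c3, the class III PI 3-kinase gene, by -1.12 ± 0.80 (SE). Prkcq, which encodes protein kinase C theta, differed by -0.95 ± 0.76 (SE) and Arhgef7, which encodes the SAP-binding exchange factor beta-PIX, by -1.47 ± 1.27 (SE). All 4 had a limma adjusted p of 0.963. Cd2, a second receptor for CD48, exceeded the mark on no array.

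Other genes of the same region of chromosome 1 were set beside the receptor genes. The RefSeq table placed 19 other protein-coding genes between the outermost receptor genes, of which 17 were measured. All 17 lay outside the stretch from Cd244a to Slamf6, which holds Slamf1 and Cd48. They were between Slamf6 and Slamf9 or between Slamf9 and Slamf8. Of the 17, 5 were higher and 12 lower in Ahr-KO, with a median log2 difference of -0.15. Limma called 0 of them at an adjusted or an unadjusted p under 0.05. Dcaf8, a substrate receptor gene of a ubiquitin ligase, was the 1 neighbour of 17 whose groups did not overlap, beside 5.74% of all probe sets. It had 76.7, 56.9 and 78.4 on Ahr-KO arrays, against 83.5, 136, 428 and 119 on WT arrays. Tagln2, an actin-binding protein gene, was above the mark on all 7 arrays, with 1737 to 2429 on Ahr-KO arrays and 1238 to 2173 on WT arrays. The neighbours Cfap45 and Vangl2, both below the mark on all 7 arrays, differed by -1.97 and -1.05 log2 units, and Igsf9, above it on 1 array, by 1.64.

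**Figure D4:**
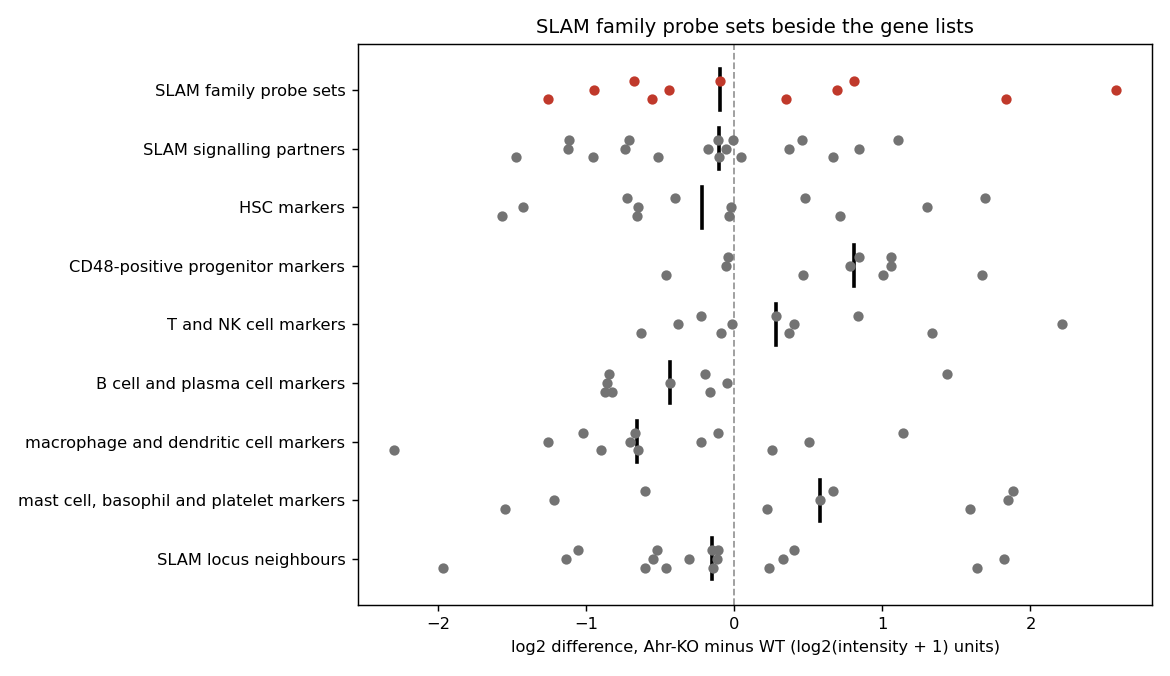
Log2 difference, Ahr-KO minus WT, of each SLAM family probe set (red, top row) and of each gene of 8 lists (grey), with the median of each row as a black bar. The SLAM family row has a median of -0.10 and spans -1.26 for Sh2d1a to 2.58 for Slamf1.

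Likeness to Slamf1 was measured as the root mean square difference between log2 profiles over the 7 arrays, each centred on its own mean. Among 8667 named genes above the mark on at least 3 arrays, the nearest was Pmvk, a kinase gene of the mevalonate pathway, at 0.44 log2 units. Next came Gabpa, which encodes an ETS-family transcription factor subunit, at 0.68, the kinase gene Tlk2 at 0.73 and Tmem70, an assembly factor gene of mitochondrial ATP synthase, at 0.75. The median over these candidates was 2.0. Pmvk stood at 82.7, 171 and 434 on Ahr-KO arrays, against 14.98, 87.6, 27.1 and 160 on WT arrays. The other SLAM genes ran from 1.5 for Slamf8 to 3.04 for Slamf7, on both sides of the candidate median of 2.0, and Cd48 lay at 2.64. They were not held to the 3-array filter. Pmvk, Gabpa, Tlk2 and Tmem70 were picked as the nearest candidates, so they are no yardstick for the SLAM genes. These distances describe the 7 arrays and were given no test.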

How the data were processed

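RNA of sorted stem cells was hybridised to 7 arrays (3 Ahr-KO, 4 WT), grouped by the sample titles. The authors deposited 1 linear intensity per probe set and array; per the submitters' processing notes they used Affymetrix Expression Console. Summarization, background correction and normalization are not stated there. Arrays have no read depth, so their number limits the precision.

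Of 41155 rows, 25335 were annotated, 23521 of them with 1 symbol and 1814 with several; the other 15820 were unnamed here. All 11 member probe sets matched the RefSeq gene table (GRCm38.p6) by Entrez ID. No genome build is named for the array; coordinates belong to the RefSeq promoter windows.

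Values as log2(intensity + 1) went into 1 limma model (version 3.58.1, R 4.3.3) with genotype alone and all 7 arrays, followed by eBayes; the script was tested on simulated data. Two-sided p-values were Benjamini-Hochberg adjusted over 25335 probe sets, threshold 0.05. A list gene with several probe sets was taken at that of the highest mean. Alternatives were each array left out, quantile normalization, the replicate number as a block, median centring, a pseudocount of 16, a filter on dim probe sets, all rows, a trended and robust variance prior, and array weights.

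The naming rule took every member, up to 4 genes per list with the smallest unadjusted p, signalling partners above the mark on all arrays, the 4 profiles nearest to Slamf1, and Ahr. Mecom, Esam, Hoxb5, Gata1, Kit, Cd27, Mllt3, Cd34, Cd9, Fyn, Cd2, Csf1r, Jchain, Vcam1, Cpa3, Tagln2, Sh2d1b1 and Sh2d1b2 were named after their values were seen, and the motifs were chosen likewise. Members and lists were chosen with earlier results of these data known.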

Additional observations from a re-analysis of the deposited data

Results flagged for a closer look

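Of 48 probe sets examined for a WT array far from the other 3, 2 were flagged; chance flags about 1 in 20 groups. Slamf8 stood at 21.3 on WT replicate 4, against 8.09, 8.70 and 8.91 on the other WT arrays, with all 4 values below the olfactory receptor mark. Mcpt8, a basophil protease gene, stood at 3.76 on WT replicate 1, against 664, 773 and 1352 on the other WT arrays; that array also had the lowest Cd48 and the lowest Slamf1.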

How the results depend on the processing

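Across 15 alternatives, limma called 0 member probe sets, 0 list genes and 0 probe sets in all at an adjusted p under 0.05. Members had adjusted p-values from 0.908 to 1.0, and 9 of the 11 kept their sign wherever they were tested. Slamf1 ran from 1.73 (pseudocount 16) to 3.28 (replicate block, to which WT replicate 4 adds nothing because no Ahr-KO array shares its number), and its unadjusted p exceeded 0.05 when Ahr-KO replicate 3 or either of WT replicates 1 and 3 was left out. Cd84 (-0.10; -0.75 without WT replicate 1) turned to 0.091 with array weights, 0.18 with the replicate block, 0.16 without Ahr-KO replicate 1 or 3, 0.25 without WT replicate 2 and 0.18 without WT replicate 4. Slamf7 turned to 0.52 without Ahr-KO replicate 3, from -1.77 without Ahr-KO replicate 1. Among list genes, leaving out single arrays moved Dntt between -0.054 (without Ahr-KO replicate 3) and 2.75, Ppbp between -0.21 (without Ahr-KO replicate 2) and 2.83, and Mcpt8 between -0.00016 (without WT replicate 1) and 2.72. Unadjusted calls over all probe sets numbered 1067, against 495 with the filter on dim probe sets, which left 4 of the 11 members, and 1781 over all rows, because fewer and more rows were tested. The labels do not say whether equal replicate numbers pair the arrays. Deviations of same-numbered arrays correlated at 0.0227, -0.0646 and 0.0101, and no Ahr-KO array correlated best with its own number. With so few arrays these values cannot exclude a pairing. With the replicate block 1120 probe sets had an unadjusted p under 0.05, 65.7% of them higher in Ahr-KO, against 47.3% without it. Without WT replicate 4 and with no block, 1127 did, 61.8% of them higher. That share was 37.5% without WT replicate 2, so it also moves with single arrays. The probe sets below the mark on every array limit what can be said of Cd244a, Ly9, Slamf6, Slamf8 and Slamf9.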

Other observations

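Of 63 genes measured in the 6 marker lists, 3 (4.76%) had an unadjusted limma p under 0.05, beside 4.21% of all probe sets, and 0 an adjusted p under 0.05. The groups did not overlap for 6 of the 63 (9.52%), beside 5.74% of all probe sets. The platelet glycoprotein gene Gp9 stood at 234, 235 and 204 on Ahr-KO arrays, against 358, 673, 1566 and 494 on WT arrays, differing in log2 by -1.55 ± 0.58 (SE). H2-Eb1, a class II antigen presentation gene, stood at 16.4, 43.4 and 132 on Ahr-KO arrays, against 170, 441, 228 and 160 on WT arrays, differing in log2 by -2.30 ± 0.75 (SE). The plasma cell marker gene Sdc1 stood at 61.5, 57.0 and 22.1 on Ahr-KO arrays, against 16.1, 13.5, 16.7 and 14.4 on WT arrays, a log2 difference of 1.44 ± 0.50 (SE). It exceeded the mark on Ahr-KO replicates 1 and 2 alone. Gp9, H2-Eb1 and Sdc1 each had a limma adjusted p of 0.963, and their groups did not overlap. The other 3 genes without overlap were Ctnnal1, Adgre1 and Mertk, all lower in Ahr-KO. All Ahr-KO values of these 3 genes lay below the mark. Adgre1 exceeded it on no array, Mertk on 1 and Ctnnal1 on 2.

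Of 9 measured mast cell, basophil and platelet markers, 6 were higher and 3 lower in Ahr-KO, with a median log2 difference of 0.58. Of 9 B cell and plasma cell markers, 1 was higher and 8 were lower, with a median of -0.44. Besides Gp9, the genes of the first list with the smallest unadjusted p-values were Prss34, Mcpt8 and Ppbp, with log2 differences of 1.85 ± 1.25, 1.88 ± 1.89 and 1.59 ± 1.74 (SE). The basophil gene Prss34 stood at 216, 395 and 212 on Ahr-KO arrays, against 6.10, 416, 71.6 and 132 on WT arrays. Cpa3, a mast cell protease gene, stood at 1670 on WT replicate 2 and at 95.3 or lower on the other 6 arrays.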
